A study of Mus musculus with 4 samples.

Results

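Ribosomal protein genes encode the proteins of the cytoplasmic ribosome. They were chosen by symbol as protein-coding genes named Rpl or Rps with a number, plus Rpsa, Rplp0, Rplp1 and Rplp2. Ribosomal S6 kinases and names carrying -ps were left out. The rule took 89 of 21887 protein-coding genes on the assembled chromosomes. Of these, 77 carried the names of canonical ribosomal proteins, 46 of the large and 31 of the small subunit. Another 10 were paralogs or gene copies made by retroposition. Rps19bp1 and Rps23rg1 match the symbol rule but are not ribosomal proteins. A first base and a direction of transcription were listed in the RefSeq promoter table for 69 of the 89 genes. The other 20 were measured at both annotated gene ends.

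The samples were 4 ATAC-seq libraries of whole lung from wild-type (wt) mouse embryos at E15.5, forming 1 group with no treatment and no contrast. ATAC-seq reads open chromatin from where the Tn5 transposase cuts. Whether the replicates came from separate embryos was not stated, so each SD covers the spread between these libraries, which may be technical. Whole lung mixes many cell types, and a change in the share of cells with an open site cannot be told apart from a change in how open it is.

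The libraries held 134503 to 211678 peaks. Replicate 1 had the fewest and a median fold of 8.99, against 3.73 to 3.90 in the others, and its peak names carried the French word for fresh where the others carried the word frozen. The labels describe all lungs as snap-frozen, so this difference cannot be resolved here, and results are given by library. Of 6 lung genes checked at either annotated end, Sftpc, Foxf1, Tbx4 and Hoxa5 had a peak summit within 500 bp in all 4 libraries, Tbx5 in 1 and Nkx2-1 in none. Alb, Myh4 and Arr3, products of other organs, had none.

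A ribosome joins a small subunit, which reads the mRNA, to a large subunit, which forms the peptide bond. Their proteins are needed in balanced amounts in every cell, and growing tissues such as embryonic lung make many ribosomes. Vertebrate ribosomal protein promoters are compact. Their mRNAs start with a C and a run of pyrimidines, the 5′ TOP element, through which mTOR signalling controls their translation. Sites for ETS family factors, YY1 and GC-box factors are commonly found around these starts.

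The promoter letters are shown first for genes whose peaks ranked highest or lowest, whose summits lay far from the start, or whose start region shows the pyrimidine run. Each run, 5′ to 3′ on the gene strand, holds 70 bases before the annotated first base and 25 from it on, so that base 71 is the annotated start. Capitals mark the ETS factor core CCGGAA, the element TCTCGCGA, the TATA-like letters TATATA, or a pyrimidine run of 8 or more bases. The first 4 genes, for Rps21 and Rps19 of the small and Rpl37 and Rpl27 of the large subunit, had peaks among the 5 of highest mean rank of the genes with a listed start.
Rps21, chr2:180257309-180257403, plus strand: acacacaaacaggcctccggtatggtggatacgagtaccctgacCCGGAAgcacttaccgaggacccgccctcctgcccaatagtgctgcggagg
Rps19, chr7:24884522-24884616, plus strand: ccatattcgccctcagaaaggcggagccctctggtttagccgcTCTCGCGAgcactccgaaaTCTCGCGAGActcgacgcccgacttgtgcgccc
Rpl37, chr15:5116543-5116637, plus strand: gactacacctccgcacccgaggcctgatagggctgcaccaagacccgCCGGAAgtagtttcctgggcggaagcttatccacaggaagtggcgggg
Rpl27, chr11:101442175-101442269, plus strand: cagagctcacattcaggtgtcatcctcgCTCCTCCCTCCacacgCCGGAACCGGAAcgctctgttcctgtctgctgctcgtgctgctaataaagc
Rpl15, chr14:18270962-18271056, minus strand: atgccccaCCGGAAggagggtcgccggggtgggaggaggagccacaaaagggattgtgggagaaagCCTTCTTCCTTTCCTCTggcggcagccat
Rps18, chr17:33955641-33955735, minus strand: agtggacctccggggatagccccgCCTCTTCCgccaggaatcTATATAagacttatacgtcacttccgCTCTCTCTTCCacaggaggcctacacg
Rps26, chr10:128626482-128626576, minus strand: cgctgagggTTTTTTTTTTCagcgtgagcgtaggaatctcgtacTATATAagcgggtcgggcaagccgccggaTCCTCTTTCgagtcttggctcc
Rpl37a, chr1:72711190-72711284, plus strand: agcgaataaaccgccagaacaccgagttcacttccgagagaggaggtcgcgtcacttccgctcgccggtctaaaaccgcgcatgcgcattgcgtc
Rps4x, chrX:102189367-102189461, minus strand: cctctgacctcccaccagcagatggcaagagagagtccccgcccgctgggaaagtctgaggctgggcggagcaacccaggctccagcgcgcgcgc

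The sequences are from RefSeq on GRCm38.p6, the assembly that mm10 represents. In Rpl15 and Rps18 the pyrimidine run spans the annotated start, where a TOP element lies. In Rps26 it begins a few bases into the annotated transcript. Rpl37a and Rps4x, whose peaks had the lowest mean ranks among genes with a listed start and a peak in every library, have no capitals in these windows, but Rpl37a holds a pyrimidine run of 10 or more bases that begins at the end of its window and runs past it.

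Over 57 canonical promoters of 300 bases (250 before and 50 from the start on), 46 (80.7%) held a pyrimidine run of at least 8 bases within 50 bases of the start on the gene strand, against 35.3% of all 17492 promoters. A run of 10 or more was present in 68.4% and 17.8%. Cytosine at the annotated first base was found in 20 (35.1%), against 13.7% of all, so most annotated starts did not lie at a C. Cytosine there followed by 4 pyrimidines was found in 21.1% and 2.17%. CCGGAA on either strand was present in 29 promoters (50.9%), against 19.1% of all. TCTCGCGA on either strand was in 10 (17.5%), against 1.51%. These were Rpl7a, Rpl12, Rpl26, Rpl27a, Rpl35, Rps3a1, Rps6, Rps15a, Rps19 and Rps28.

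Other letters were nearer to the share over all promoters. GGGCGG (the GC box) was in 59.6% against 46.3%, GCCATC (the core of YY1 sites) in 21.1% against 13.5%, and CCAAT in 31.6% against 39.0%. CACGTG (an E-box, the type bound by MYC) was in 8.77% against 7.90%, TATAAA anywhere in 8.77% against 13.3%, and the palindromic NRF1 motif in Rpl37a alone, 1.75% against 1.32%. All were searched on both strands, and a match is a description of letters, not a bound site. On the gene strand alone, TATAAA or TATATA 20 to 45 bases before the start was in 3 promoters (5.26%), against 4.04%. These were Rpl4, Rps18 and Rps26, so the marked TATATA is not typical of the set. The ratio of observed to expected CpG had a median of 0.903 in canonical promoters and 0.576 in all, and GC content 58.0% and 56.3%. CpG-rich promoters are known to be open in most tissues, so the values that follow stand beside a sequence composition that also differs, and its part was not tested.

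**Figure D1:**
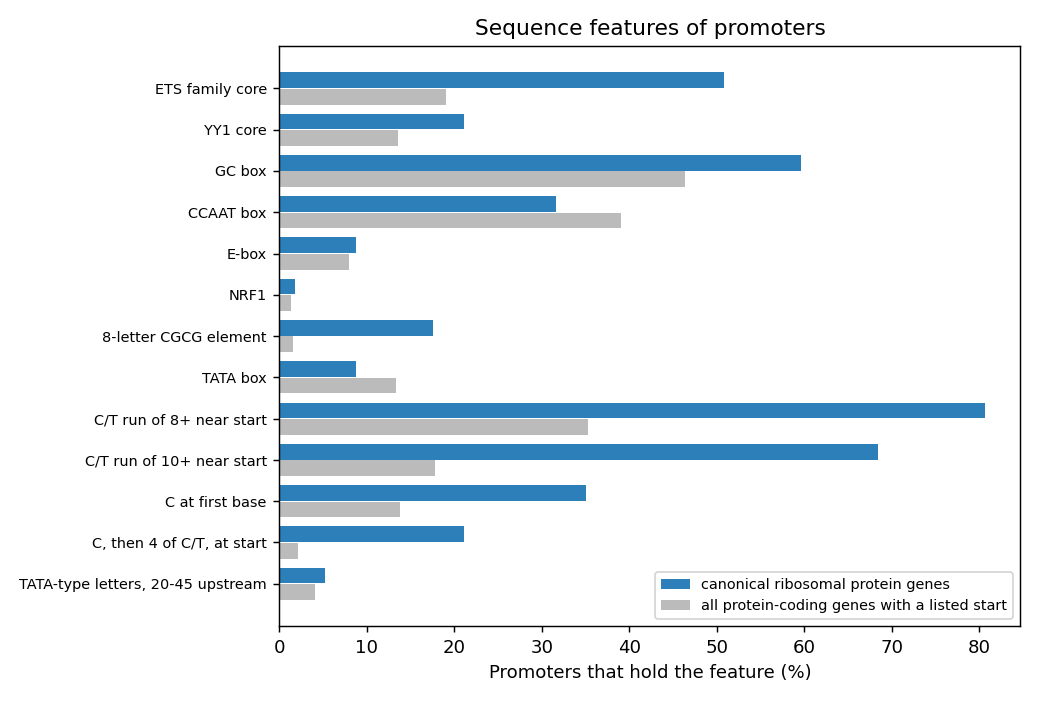
Share of promoters (%, horizontal axis) that hold each sequence feature, for 57 canonical ribosomal protein genes (blue) and 17492 protein-coding genes with a listed start (grey). The pyrimidine runs near the start, at 80.7% and 35.3% for runs of 8 or more, and the ETS core, at 50.9% and 19.1%, differ most in percentage points.

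Within this background, a 5′-end peak was defined as the peak of highest fold with a summit within 500 bp of a listed start. Of the 69 genes with a listed start, 57 had such a peak in all 4 libraries, against 54.8% of all 17492 protein-coding genes. All 23 small-subunit genes among them did, as did 30 of 34 large-subunit genes and 4 of the 10 paralogs. The 4 large-subunit exceptions were Rpl4, Rpl10a, Rpl12 and Rpl18. At each of these a peak lay over the start in every library but had its summit elsewhere in some. When any peak over the start was accepted, 57 of 57 canonical genes were open in every library, against 61.8% of all genes.

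Of these 4 genes, 3 lay under very broad peaks in some libraries. At Rpl18 the peak was 1000 bp wide in replicate 1 with its summit 0.086 kb from the start. In replicates 2 and 4 it was 26619 and 26236 bp wide, with a summit about 13.1 kb away. Rpl12, the large-subunit protein at the base of the stalk, lay under peaks of 10071 and 10178 bp in replicates 2 and 3, with summits 5.24 and 5.28 kb off, and had its summit at the start in replicates 1 and 4. Rpl10a lay under peaks of 6201, 12505, 11721 and 30998 bp in replicates 1 to 4, and its summit was away from the start in replicate 4 alone. Rpl4, which lines the peptide exit tunnel, had no such broad peak: its summit lay 0.522 to 0.651 kb from the start in replicates 1, 3 and 4, just past the 500 bp limit.

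The 20 genes with no listed start were tested at both annotated ends, where 50.1% of all protein-coding genes had a summit within 500 bp in every library. Among the 20, 16 did. Of those that did not, Rpl23a had a gene-end summit in replicate 1, and in the other 3 libraries both of its ends lay under peaks of 6124 to 15154 bp with summits 2.85 to 5.93 kb away. At Rpl29 the summit lay 0.476 to 0.515 kb from the gene end in all 4 libraries, on either side of the limit. Rpl17 had no peak over either end in replicate 1, and in replicates 2 and 4 the summit was 1.69 and 1.86 kb away. Among the 16, the mean percentile of fold ranged from 83.0 at Rpl7 to 99.8 at Rps29. In replicate 2 the strongest Rpl7 peak by this rule was 383 bp wide, at the 40.6th percentile. Peaks over the ends of Rpl7 with summits farther off were not looked for.

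Ranks were compared within each library, because the authors' fold is not on one scale across libraries. The percentile is the rank of a peak by fold as a share of all peaks of its library. Peaks of equal fold were given their average rank, so low percentiles, where many folds are tied, are coarse. The median over the 57 genes was the 94.7th percentile in replicate 1, 97.5 in replicate 2, 97.6 in replicate 3 and 96.9 in replicate 4. Over all 9580 genes with a 5′-end peak in every library it was 92.4, 96.1, 96.4 and 96.1. Ranked only among those gene starts, the ribosomal protein median stood at 61.6, 65.6, 63.7 and 58.8, where 50 is the middle.

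Most of the genes ranked near the top, while their share at the extreme top was close to that of all genes with a peak. A mean percentile of 90 or more was reached by 55 of 57 (96.5%), against 75.5% of all genes with a peak, and 95 or more by 43 (75.4%), against 51.4%. For 99 or more the count was 7 (12.3%), close to the 12.8% of all. The lowest gene averaged 89.5. The order of genes was similar between libraries, with a Spearman rho across the 57 genes of 0.907 to 0.945 over the 6 pairs of libraries, beside 0.952 to 0.981 over all genes with a peak. Genes share depth and sequence composition across libraries and are not replicates.

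**Figure D2:**
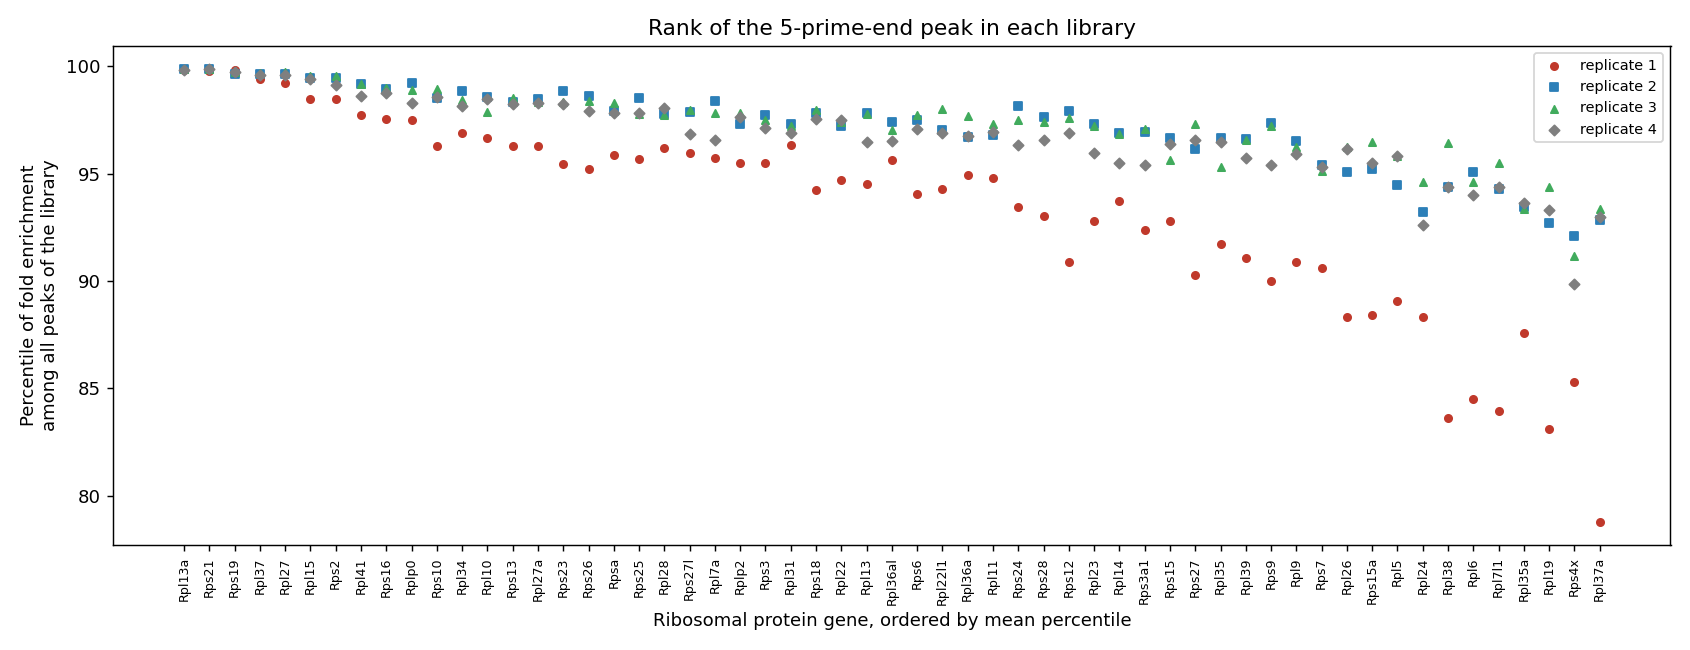
Percentile of fold (vertical axis) of the 5′-end peak among all peaks of its library, for each of 57 ribosomal protein genes in order of their mean (horizontal axis), with 1 symbol per library. Replicate 1 lies below the other libraries at 55 of 57 genes, and the gap is wider on the right, reaching 78.8 against 92.9 to 93.3 at Rpl37a.

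Replicate 1 gave the lowest percentile of the 4 libraries at 55 of the 57 genes (96.5%). It did so at 89.9% of all genes with a peak, a share close to that of the ribosomal protein genes. Rpl13a and Rps19 were the exceptions. Replicate 1 also had the shortest list, with 134503 peaks against 186199 to 211678, and the percentiles were taken over these full lists. With lists of equal length the mean of the library medians was 95.8 ± 0.805, beside 96.7 ± 1.35 with full lists (SD, n = 4). The part of list length in the lower ranks of replicate 1 was not tested gene by gene.

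The highest small-subunit gene was Rps21, with percentiles of 99.8, 99.9, 99.9 and 99.9 in replicates 1 to 4. Rps19, needed to mature the small subunit and often mutated in Diamond-Blackfan anaemia, gave 99.8, 99.6, 99.7 and 99.7. Rps29, measured at both ends, lay between them with a mean of 99.8. These hardly varied between libraries. Rpsa, whose loss of 1 copy leaves people without a spleen, was nearer the middle with 95.9, 97.9, 98.3 and 97.8. Rps6, the target of S6 kinases, averaged 96.6 ± 1.72 (SD, n = 4).

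At the low end stood Rps4x, an X-linked small-subunit gene, at 85.3, 92.1, 91.2 and 89.8. It was the lowest of the 57 genes in replicates 2, 3 and 4. The other 3 X-linked genes ranked higher in every library. Rpl10, a late-joining protein near the peptidyl transferase centre, gave 96.7, 98.6, 97.9 and 98.5. Rpl39, which lines the exit tunnel, gave 91.1, 96.6, 96.6 and 95.8, and Rpl36a averaged 96.5 ± 1.14 (SD, n = 4). The libraries differed in peaks on X, with 2997, 6134, 2649 and 4848 in replicates 1 to 4, and the part of this in the X-linked values was not tested.

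Among large-subunit genes Rpl13a was highest, at 99.85, 99.88, 99.89 and 99.84. Rpl37 gave 99.4, 99.6, 99.7 and 99.6, and Rpl27 gave 99.2, 99.6, 99.7 and 99.6. All 3 were within the top 1% of peaks in every library. The P stalk, formed by Rplp0, Rplp1 and Rplp2, recruits the elongation factors. Its genes averaged 98.5 ± 0.755, 96.8 ± 1.39 and 97.1 ± 1.07 (SD, n = 4), Rplp1 being measured at both ends.

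Rpl5 and Rpl11 travel with 5S rRNA and can bind MDM2, the inhibitor of p53. Rpl11 ranked at 94.8, 96.8, 97.3 and 97.0, and Rpl5 at 89.1, 94.5, 95.8 and 95.8. Rpl11 was the higher in each library. Over 14 Diamond-Blackfan anaemia genes with a peak in all libraries the mean of the library medians was 96.4 ± 1.56, beside 96.7 ± 1.35 for all 57 (SD, n = 4).

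Among large-subunit genes with a listed start and a peak in every library, the lowest were Rpl37a, at 78.8, 92.9, 93.3 and 93.0, Rpl19, at 83.1, 92.7, 94.4 and 93.3, and Rpl35a, a Diamond-Blackfan anaemia gene, at 87.6, 93.5, 93.3 and 93.6. In each the 3 frozen-named libraries lay within 2 percentile points of each other and replicate 1 lay apart. Rpl38, whose loss in mice disturbs translation of Hox mRNAs, gave 83.6, 94.4, 96.4 and 94.4 and had an SD of 5.80, second among the 57 genes to 7.14 at Rpl37a. Rpl7l1, a paralog of Rpl7, was next with an SD of 5.42.

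The subunits lay close in rank. The mean of the library medians was 96.5 ± 1.21 for 30 large-subunit genes and 96.8 ± 1.71 for 23 small-subunit genes (SD, n = 4). The small subunit was lower in replicate 1 (94.2 against 94.8) and higher in the other 3 libraries, by less than 1 percentile point each time. Small nucleolar RNA genes, which guide rRNA modification and often sit in introns of ribosomal protein genes, lay inside 30 of the 89 genes. The share over all protein-coding genes was not counted. The 18 such genes with a peak in all libraries averaged 97.2 ± 1.07 and the 35 canonical genes without 96.4 ± 1.59 (SD, n = 4).

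Peak width differed between replicate 1 and the other libraries. The median 5′-end peak of ribosomal protein genes was 1223 bp wide in replicate 1, 2993 bp in replicate 2, 3307 bp in replicate 3 and 3241 bp in replicate 4. Replicate 1 was narrowest at 55 of the 57 genes (96.5%), against 92.1% of all genes with a peak. Over all genes with a peak the medians were 1153, 2143, 2215 and 2418 bp. The frozen-named libraries thus had medians 2.45, 2.70 and 2.65 times that of replicate 1 for ribosomal protein genes, and 1.86, 1.92 and 2.10 times for all genes.

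**Figure D3:**
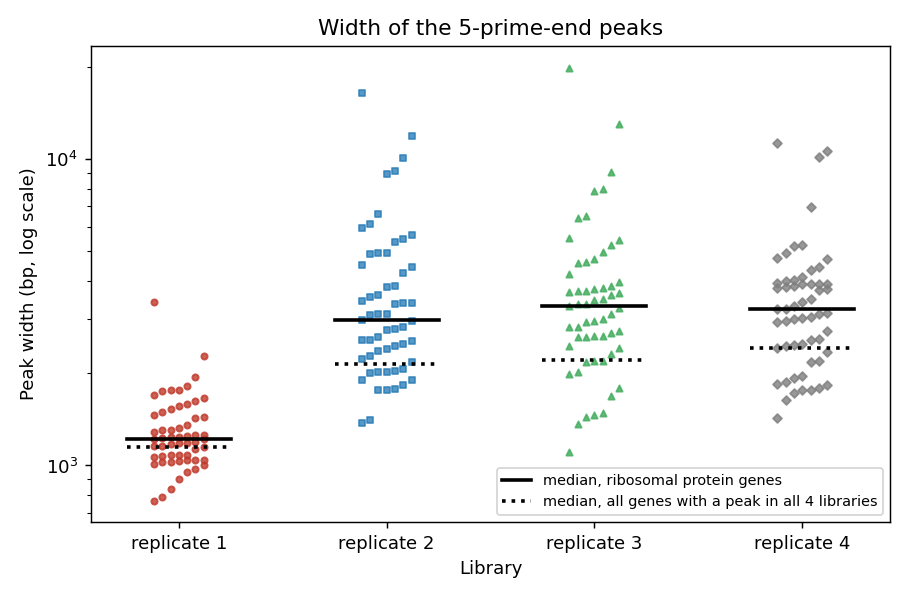
Width of the 5′-end peak (bp, log scale, vertical axis) in each library (horizontal axis), with 1 point per ribosomal protein gene (57 genes), the solid bar at their median and the dotted bar at the median of all 9580 genes with a peak in every library. The 2 medians nearly meet in replicate 1, at 1223 and 1153 bp, and part in replicates 2 to 4.

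In replicates 2, 3 and 4 alike, 41 of the 57 peaks (71.9%) were 2 kb wide or more, against 46% of all genes with a peak. Ribosomal protein genes are short, with a median length of 3269 bp over the 57, so genes of similar length were set beside them. Among genes of 1 to 5 kb, 46 ribosomal protein genes had median widths of 1245, 3058, 3417 and 3323 bp in replicates 1 to 4, and 867 other genes had 1144, 2534, 2814 and 3024 bp. Peaks covered a median of 25.6%, 70.9%, 73.7% and 67.5% of the ribosomal protein gene and 22.6%, 63.0%, 71.0% and 71.5% of the other short genes, so that in replicate 4 the order turned.

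In these short genes the reach upstream differed more than the reach downstream. Upstream medians were 562, 1653, 1784 and 1554 bp for ribosomal protein genes and 519, 1150, 1190 and 1286 bp for the others. Downstream medians were 609, 1411, 1465 and 1682 bp, and 582, 1272, 1430 and 1577 bp.

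**Figure D4:**
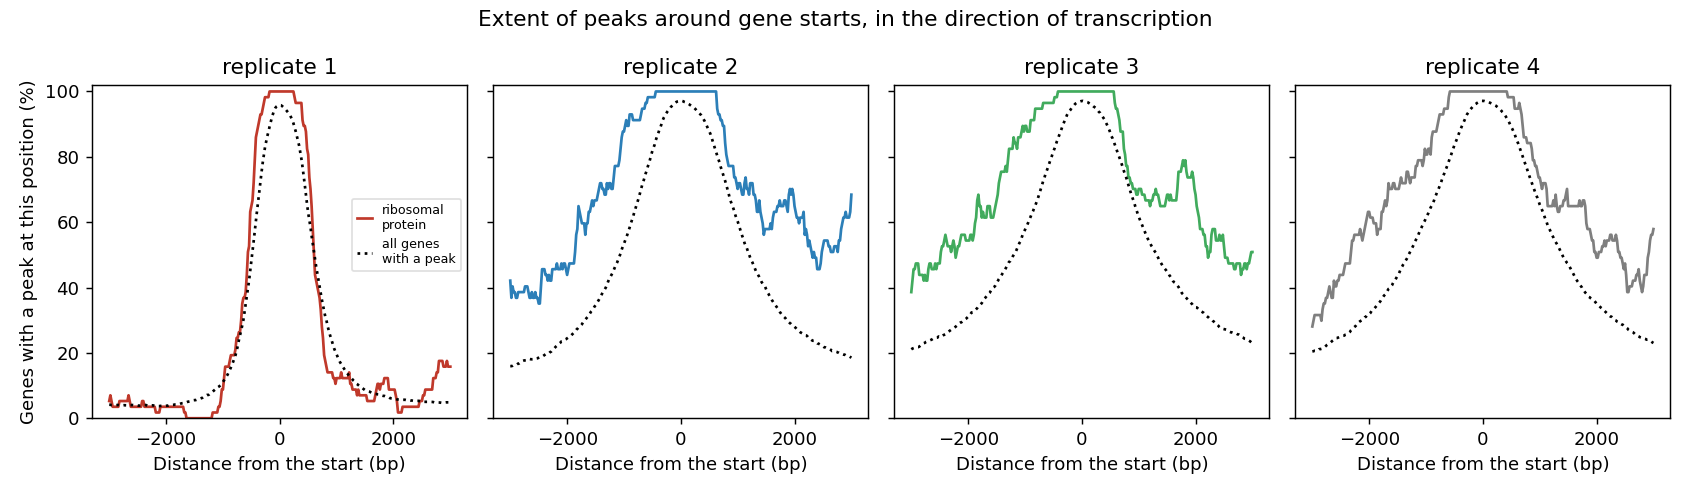
Share of genes with any peak at each position (%, vertical axis) by distance from the first listed start in the direction of transcription (bp, horizontal axis, negative is upstream), per library, for 57 ribosomal protein genes (solid) and 9580 genes with a peak in every library (dotted). At 1000 bp upstream the ribosomal protein share is 8.77% in replicate 1 and 80.7% to 89.5% in the others, where all genes give 11.1% and 53.4% to 61.4%.

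The profile by distance counts any peak, joined to the 5′-end peak or separate from it. At 2000 bp upstream, a peak was present at 43.9%, 54.4% and 63.2% of ribosomal protein genes in replicates 2, 3 and 4, and at 24.5%, 31.1% and 31.9% of all genes with a peak. At 2000 bp downstream the shares were 64.9%, 68.4% and 49.1% against 28.0%, 34.0% and 35.0%. In replicate 1 both sets were below 10% at either distance. The 5′-end peak itself reached 2000 bp downstream at 17 of the 57 genes (29.8%) in each of replicates 2, 3 and 4, against 13.9%, 17.5% and 20.2% of all genes with a peak. It reached 2000 bp upstream at 31.6%, 33.3% and 31.6%, against 11.5%, 15.4% and 18.5%. The profile at these distances also holds separate peaks. Another peak lay in the gene at 14, 33, 28 and 31 of the 57 genes in replicates 1 to 4. The share over all genes with a peak was not counted, so these counts have no background.

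Single genes show the range. Among the 57 genes Rplp2 had the widest peaks on average, at 1012, 16431, 19879 and 4135 bp in replicates 1 to 4, and in replicates 2 and 3 its peak also covered the starts of Pidd1 and Slc25a22. Rps15, which helps export the small subunit from the nucleus, gave 1696, 9132, 13002 and 10191 bp and reached the start of Apc2 in replicates 2 to 4. Rpl13a gave 1746, 11913, 4708 and 10614 bp. In each, the peak was far wider in the frozen-named libraries than in replicate 1.

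The narrowest were Rpl5, at 1000, 1377, 1439 and 1932 bp, Rpl22l1, at 904, 1767, 1366 and 1758 bp, and Rps4x, at 790, 1411, 1791 and 1838 bp. These stayed below 2 kb in all 4 libraries. The order of widths was kept less well than that of ranks: across the 57 genes rho was 0.131 to 0.254 between replicate 1 and the others and 0.627 to 0.696 among replicates 2 to 4. Over all genes these were 0.633 to 0.698 and 0.827 to 0.846. Within a library, width and percentile had a rho of 0.254 to 0.392 across the 57 genes.

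A second start close by was found for 9 of the 69 genes (13%), against 9.99% of all genes, and all 9 were divergent, an arrangement found at 8.48% of all genes. The partners were Med22 for Rpl7a, Lrsam1 for Rpl12, Rab13 for Rps27, Lias for Rpl9, Sphk2 for Rpl18, Mgat2 for Rpl36al, Iqcg for Rpl35a, Ndufa7 for Rps28 and Vps52 for Rps18. The starts lay 10 bp (Rps28 and Ndufa7) to 267 bp (Rpl35a and Iqcg) apart, so 1 peak serves both genes and its rank cannot be given to either alone. Without such genes, the 50 that remained had median percentiles of 94.9, 97.6, 97.7 and 96.9. Their median widths were 1228, 3046, 3368 and 3288 bp. These peaks were as high and as wide as with such genes. Some of the 50 still had a peak over a start farther off, such as that of Zc3h10 under the Rpl41 peak in every library.

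The median summit position hardly changed between libraries, whereas single genes varied in how far their summits moved. With upstream positions written as negative, the median summit lay at -54, -52, -54 and -55 bp from the start in replicates 1 to 4, where all genes with a peak gave -44, -46, -46 and -45 bp. In all 4 libraries it was upstream at 39 of the 57 genes (68.4%), against 52.5% of all. It was within 100 bp of the start in all 4 at 33 (57.9%), against 40.6%. The 4 summits of a gene fell within 50 bp of each other at 30 (52.6%), against 38.5% of all. At Rps6 they differed by 4 bp and at Rpl13a by 6 bp, while peak widths at Rpl13a ranged from 1746 to 11913 bp.

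**Figure D5:**
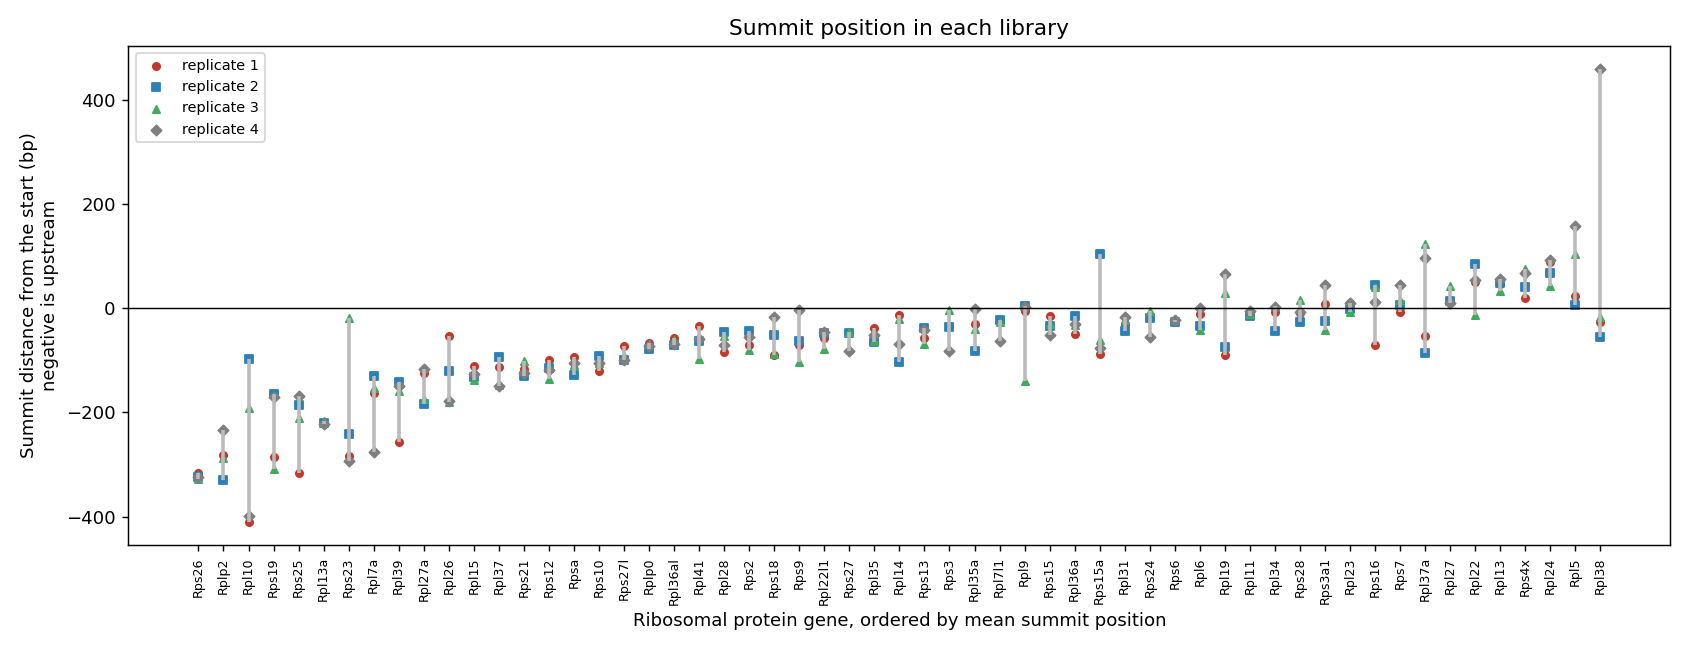
Distance of the peak summit from the nearest listed start (bp, vertical axis, negative is upstream) for 57 ribosomal protein genes in order of their mean (horizontal axis), with 1 symbol per library and a grey bar from the lowest to the highest. Most summits sit just upstream of 0, and Rps26 at the left stays within 11 bp around a mean of -322 bp.

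The farthest summits were those of Rps26, which contacts mRNA upstream of the start codon on the ribosome, at -316, -323, -327 and -323 bp. Rplp2 gave -282, -330, -288 and -234 bp, and Rpl10 gave -410, -98, -192 and -399 bp. Rps26 was fixed in position, whereas Rpl10 moved by 312 bp between libraries. The widest spread was at Rpl38, where replicate 4 placed the summit at 460 bp and the others at -56 to -16 bp. Summits downstream of the start in all 4 libraries were found at Rpl5, Rpl13, Rpl24, Rpl27 and Rps4x.

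The paralogs divided into 2 sets. Rps27l, Rpl22l1, Rpl36al and Rpl7l1 had a 5′-end peak in every library, with mean percentiles of 97.2 ± 0.940, 96.6 ± 1.59, 96.6 ± 0.771 and 92.0 ± 5.42 (SD, n = 4). These lie in the range of the canonical genes. Rpl10l, a retroposed copy used in male germ cells, Rpl39l, a paralog enriched in testis, and the copy Rpl32l had none in any library, as had Rps23rg1, a copy of Rps23. Rpl3l, the paralog of Rpl3 in heart and skeletal muscle, had a summit within 500 bp of a start in replicates 2 and 3 at the 30.0th and 72.3rd percentile. Rpl37rt had one in replicates 2, 3 and 4, at 7.36, 72.3 and 34.3, and Rps27rt in the same libraries at 18.1, 7.39 and 8.73. Their peaks in those libraries were 177 to 817 bp wide, and replicate 1 had none. All ranked below the 57 genes with a peak in every library, whose lowest percentiles in replicates 2, 3 and 4 were 92.1, 91.2 and 89.8. When any peak over a start was accepted, Rpl3l had one in replicates 3 and 4 and Rpl37rt in replicate 3. That of Rpl3l in replicate 4 was 1020 bp wide, at the 66.7th percentile, with its summit 0.599 kb away. Median CpG ratios were 0.956 over the 4 paralogs with a peak in every library and 0.521 over the 6 without.

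Rps27 and its copy Rps27rt are shown together because they share the start of the transcript and not the DNA before it. Capitals mark the longest stretch they have in common in these windows of 70 bases before and 25 from the annotated first base on.
Rps27, chr3:90213624-90213718, minus strand: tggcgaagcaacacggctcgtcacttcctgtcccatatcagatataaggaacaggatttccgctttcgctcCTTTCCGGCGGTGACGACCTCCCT
Rps27rt, chr9:114982715-114982809, minus strand: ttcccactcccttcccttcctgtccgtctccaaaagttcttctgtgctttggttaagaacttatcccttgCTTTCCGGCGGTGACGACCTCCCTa

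Over the full 300 bases the longest shared run was 38 bases, starting at the first base of the copy, while the longest shared run before the starts was 10 bases. Rps27 ranked at 90.3, 96.1, 97.3 and 96.6 in replicates 1 to 4. The copy had no summit within 500 bp in replicate 1. Its low-ranking peaks in replicates 2, 3 and 4 ended upstream of the start, so no peak covered the shared letters at the copy in any library.

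Pseudogenes extend this comparison, since ribosomal protein mRNAs are a frequent source of processed copies, which carry the transcript and not the promoter. The 318 annotated pseudogenes taken here had a ribosomal protein symbol carrying -ps, and copies under other symbols were not counted among them. Of these 318, 5 (1.57%) had a summit within 500 bp of either end in all 4 libraries, against 2.97% of all 10429 pseudogenes. Another 252 (79.2%) had no such summit in any library. The 5 were Rpl9-ps3, Rpl9-ps8, Rpl10a-ps1, Rpl21-ps7 and Rpsa-ps1, each 17536 to 78246 bp from the nearest end of a protein-coding gene, with a median mean percentile of 81.4. Under the same rule 69 of the 89 ribosomal protein genes were open, against 50.1% of all protein-coding genes. The sources used here do not say how reads matching several copies were treated, and reads inside these near-identical copies could be lost or misplaced.

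Other housekeeping families with a listed start gave values of the same order. They were taken by symbol alone, from names starting with Mrpl or Mrps, Psma to Psmd, or Eif, followed by a number. Such lists may hold genes that are not themselves subunits or factors. Mitochondrial ribosomal proteins had a 5′-end peak in all libraries at 67 of 69 genes, proteasome subunits at 30 of 33 and translation factors named Eif at 38 of 44, beside 53 of 57 canonical ribosomal protein genes. The means of their library median percentiles were 94.2 ± 2.51, 96.1 ± 2.04 and 96.9 ± 1.43, beside 96.7 ± 1.38 (SD, n = 4). Median widths in replicates 2, 3 and 4 were 2035, 2496 and 2532 bp for mitochondrial ribosomal proteins, 2138, 2193 and 2369 bp for proteasome subunits, and 2703, 2477 and 2935 bp for Eif translation factors. Canonical ribosomal protein genes gave 3122, 3363 and 3326 bp, the widest of the 4 families in each of these libraries. In replicate 1 the Eif translation factors were widest, at 1350 bp. Canonical ribosomal protein genes gave 1221 bp there, proteasome subunits 1017 bp and mitochondrial ribosomal proteins 963 bp. No test was made between families, and gene length and neighbouring genes were not equalised.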

How the data were processed

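The authors deposited 1 list of narrow peaks per library, with fold enrichment at the summit (a ratio), −log10 p and q values, a score and positions, per the labels and file layout. The submitters' processing notes name the mm10 build, MACS3 3.0.1 as well as Bowtie2 2.5.2, and further list deepTools, SAMtools 1.18, FastQC 0.12.1, bedtools 2.31.0 and Trim Galore. Their settings, duplicate removal and Tn5 shift are not given in the sources used here. Read totals were not used here, so depth is unknown and no counting interval is given.

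Within each library, all peaks of the 19 autosomes and both sex chromosomes were ranked by fold with Python 3.11.15, pandas 2.3.3 and numpy 2.4.6. The deposited score was not used further, and the deposited −log10 q served for a stricter threshold. Gene starts came from RefSeq promoters of GRCm38.p6. The strongest peak with a summit within 500 bp of any listed start was taken, and summit distances were signed by strand. The method was checked on planted peaks. Members and lists were chosen with earlier results of these data known, and lists are described by counts and medians without a test. Named genes were the 5 highest and 5 lowest in rank, the 3 widest and narrowest, the 3 with the largest SD and the farthest summits, genes lacking a peak in a library, X-linked genes, paralogs, Rpl5, Rpl11, Rpsa, Rps19 and the P stalk. Other genes were named after their values were seen. The values of 1 gene are not reported here.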

Additional observations from a re-analysis of the deposited data

Results flagged for a closer look

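A library standing apart from the other 3 was looked for by the gap to its nearest neighbour as a share of the whole range, against Dixon's 95% critical value for 4 values. Chance passes this limit in about 1 of 20 sets. The median width of ribosomal protein peaks passed it at 0.849, with replicate 1 narrow. For percentiles of fold, over lists of unequal length, 21 of 57 genes (36.8%) passed, beside 29.1% of all 9580 genes with a peak. Among the genes named by the rules given above, these were Rpl37a (0.967), Rpl35a (0.954), Rpl7l1 (0.897), Rpl19 (0.851), Rpl39 (0.847) and Rpl38 (0.84). Replicate 1 was lowest in each. Genes named after their values were seen were left out of this list. For single-gene widths 3 of 57 passed (5.26%, all genes 10.6%) and for summit positions 7 of 57 (12.3%, all genes 10.8%).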

How the results depend on the processing

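No paired analysis was possible because the libraries form 1 group. The count of 57 genes with a 5′-end peak in every library was 48 to 62 over all settings tried, within 1.5 times. It was 48 with summits within 250 bp, 62 with any peak over the start and 60 with at least 3 of 4 libraries. The median percentile of 96.7 was 93.9 with a q of 1e-05 or less, because fewer weak peaks stayed in the ranking. It was 95.8 with lists of equal length and 62.4 when ranked only among gene starts. Leaving out 1 library gave 96.4 to 97.3. The median width of 2691 bp, averaged over libraries, became 2486 to 3127 bp. The median summit, at -53.8 bp, was at -42.8 bp with summits within 250 bp, which drops the farther ones, and at -52.3 bp with any peak over the start. Leaving out 1 library gave -54.3 to -51.2 bp. For 24 named genes, 233 of 261 values moved by less than the SD over libraries. The 28 that moved more came from the q threshold (23) and from lists of equal length (5). Using the outermost start only, or leaving out genes with another start within 1 kb, was chosen after seeing the data. Unknown read depth limits how far a missing peak can be read as closed chromatin.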
